A study of Mus musculus with 6 samples.

Results

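The itch peptide neuron genes are 7 genes that mark or serve a class of small sensory neurons in the dorsal root ganglion, where the cell bodies of sensory neurons lie just outside the spinal cord. They are Nppb, Sst, Nts, Il31ra, Osmr, Cysltr2 and Htr1f, and they were found by their mouse Ensembl identifiers among the 54532 gene rows of 1 bulk RNA-seq table. All 7 had a row, and all 7 passed the filter on low values used for the tests. They were proposed with results of the same comparison known, so their differences between the groups are given as a description.

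The table held 6 libraries from dorsal root ganglia of C57BL/6 mice at 8 weeks of age. In the 3 Hdac2 cKO libraries (genotype label Adv-Cre+/hdac2-flop++), Cre recombinase driven by the Advillin promoter acted on floxed Hdac2, which encodes a histone deacetylase. The 3 control libraries, labelled WT, came from littermates with the label hdac2-flop++ and no Cre, so both groups carried the floxed alleles. Cre and the loss of Hdac2 cannot be told apart here, because no group carried Cre alone. Advillin is active in most primary sensory neurons, so the deletion was not aimed at the itch neurons in particular. The study asked whether HDAC2 in sensory neurons bears on pain through the calcium channel subunit α2δ-1 and NMDA receptors, and its labels do not mention itch.

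Itch from the skin is carried in part by unmyelinated neurons that make the peptides encoded by Nppb and Sst. Natriuretic peptide B is released in the dorsal horn and acts on the receptor Npr1 of spinal interneurons. Somatostatin, from Sst, acts through inhibitory receptors, and neurotensin, from Nts, is a further peptide of the same neurons in mice. The neurons sense immune products through Il31ra and Osmr, which together form the receptor for interleukin 31, and through Cysltr2, a receptor for cysteinyl leukotrienes. Htr1f encodes an inhibitory serotonin receptor. Bulk tissue cannot show whether the 7 genes were expressed in the same cells, and a change in the number of cells of a type cannot be told apart from a change in RNA per cell.

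The promoters of 4 of these genes are shown because these genes stood differently between the groups: Sst was the 1 member with a lower mean in Hdac2 cKO, Nts had the largest difference, and Il31ra and Osmr encode the subunits of 1 receptor. Each is the 250 bases before the RefSeq start in GRCm38.p6, 5′ to 3′ on the strand of the gene, with motif matches in capitals. The windows lie at chr16:23890845-23891094 (minus strand) for Sst, chr10:102490419-102490668 (minus strand) for Nts, chr13:112580663-112580912 (minus strand) for Il31ra and chr15:6874314-6874563 (minus strand) for Osmr. The Il31ra and Osmr windows lie wholly, and the Sst and Nts windows in part, inside the GENCODE gene models, which start farther upstream.
Sst: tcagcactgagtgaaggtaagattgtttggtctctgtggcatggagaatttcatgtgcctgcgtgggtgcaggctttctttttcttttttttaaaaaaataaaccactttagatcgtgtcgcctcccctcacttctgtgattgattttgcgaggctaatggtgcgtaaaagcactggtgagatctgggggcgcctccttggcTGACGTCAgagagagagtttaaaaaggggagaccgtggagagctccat
Nts: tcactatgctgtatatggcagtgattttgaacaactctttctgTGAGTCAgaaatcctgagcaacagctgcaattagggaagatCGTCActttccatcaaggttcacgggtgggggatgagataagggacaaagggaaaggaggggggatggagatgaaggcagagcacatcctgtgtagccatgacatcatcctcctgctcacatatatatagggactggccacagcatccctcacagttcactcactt
Il31ra: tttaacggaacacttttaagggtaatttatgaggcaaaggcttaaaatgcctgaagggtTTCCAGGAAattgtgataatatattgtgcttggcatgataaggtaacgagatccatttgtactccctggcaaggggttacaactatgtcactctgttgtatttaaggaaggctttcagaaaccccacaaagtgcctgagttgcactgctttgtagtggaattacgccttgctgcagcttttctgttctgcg
Osmr: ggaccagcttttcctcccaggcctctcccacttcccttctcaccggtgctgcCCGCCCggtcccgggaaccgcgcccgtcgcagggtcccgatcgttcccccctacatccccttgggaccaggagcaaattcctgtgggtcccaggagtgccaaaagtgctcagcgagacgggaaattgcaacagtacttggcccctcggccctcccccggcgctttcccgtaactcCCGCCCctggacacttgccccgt

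In the Sst window the capitals mark the full cyclic AMP response element TGACGTCA, 48 bases before the start, which 1.62% of 27025 promoter windows of the same length held. The Nts window held the AP-1 motif TGANTCA, 207 bases before the start and present in 6.87% of windows. It also held the short element TGACG on the opposite strand, printed as CGTCA, 166 bases before the start, a match found in 17.9% of windows. The same short element lies within the full element of Sst on both strands. The Il31ra window held the STAT motif TTCNNNGAA, 191 bases before the start and present in 7.18% of windows. In the Osmr window the capitals mark a pair of GC boxes, GGGCGG on the opposite strand, 198 and 23 bases before the start, a motif found in 32.9% of windows. All motifs were searched on both strands, with TATAAA (13.0% of windows) and the RUNX motif TGTGGT (14.2%) as well. Of the other members, Nppb held TATAAA 31 bases before the start, and the windows of Cysltr2 and Htr1f held no match. GC content was 66.0% for Osmr, with 18 CpG pairs, and 42.0 to 54.8% for the other members, with 2 to 8 CpG pairs, against medians of 52.0% and 6 over all windows. A match is a description of the letters and not evidence of binding.

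All levels below are normalised read counts, that is, reads per gene divided by 1 size factor per library, unless a sentence names another scale. Library totals ran from 18943595 to 42070531 reads in genes, and 24458 to 29181 genes were detected. Hdac2 itself had 2816, 1715 and 3498 normalised counts in WT 1, 2 and 3, against 499.1, 371.5 and 535.0 in Hdac2 cKO 1, 2 and 3, in the direction of the labels (log2 fold change -2.47, SE 0.31). The libraries were not alike in other ways. WT 3 stood apart, with a median correlation across genes of 0.836 with the other libraries, where the others had 0.936 to 0.957. Erythroid and granulocyte genes summed to 61435 to 94885 in WT 1, Hdac2 cKO 1 and Hdac2 cKO 2 and to 1447 to 8103 in the other 3 libraries. Y-linked genes were read in WT 2, WT 3 and Hdac2 cKO 2 only, with sums of 3649 to 5698 against at most 7.06. The 12 pan-neuronal markers summed to 422855 to 643074 in WT and 448850 to 597804 in Hdac2 cKO.

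Across the 7 genes, 6 had a higher mean log2 level in Hdac2 cKO, as 55.3% of all genes tested did, and 1, Sst, a lower one. For 5 of them, Nts, Il31ra, Osmr, Cysltr2 and Htr1f, every Hdac2 cKO library lay above every WT library, against 4.63% of all 18410 genes tested. The median log2 fold change was 1.04 over the 7 genes and 0.06 over all genes tested. As the genes were chosen on this contrast, these counts describe the choice and nothing is read from them. No member passed the test over all genes (limma, adjusted p under 0.05), as no gene did (0.0% of 18410), Hdac2 included, and 341 genes had an unadjusted p under 0.05 (1.85%). The differences below are therefore values with their errors and not calls. Some alternative tests did call members as higher. DESeq2 with the replicate number as a block called 3 of the 7 (0.123% of the genes it tested). The pairing by number is uncertain and is not in the labels. A limma fit with a weight for each library called 5 of the 7 (1.69%). That weighted fit had 28.1% of all genes at an unadjusted p under 0.05.

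**Figure D1:**
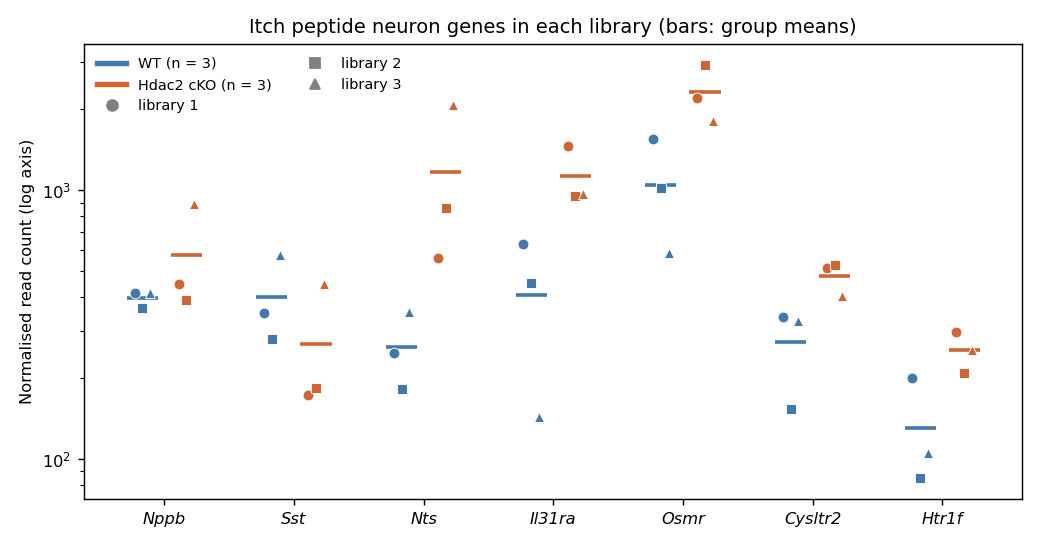
Normalised read counts (log axis) of the 7 genes in each of the 3 WT (blue) and 3 Hdac2 cKO (orange) libraries, with bars at the group means and a symbol for each library number. The groups do not overlap for Nts, Il31ra, Osmr, Cysltr2 and Htr1f, and they overlap for Nppb and Sst, where Hdac2 cKO 3 is the highest of its group for both genes.

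Of the 3 peptide genes, Nppb, the gene of natriuretic peptide B, lies at chr4:147985788-147987205 on the plus strand. It had 415.6, 363.3 and 415.0 normalised counts in WT 1, 2 and 3, against 446.6, 392.2 and 891.7 in Hdac2 cKO 1, 2 and 3. Hdac2 cKO 3 alone was high and the groups overlapped, with 398 ± 30.0 (SD, n = 3) in WT and 577 ± 274 in Hdac2 cKO. The log2 fold change was 0.44 (SE 0.34), and 0.08 without Hdac2 cKO 3.

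Sst, the somatostatin gene at chr16:23889573-23890958 on the minus strand, went the other way. It had 348.5, 279.9 and 572.4 normalised counts in WT and 172.8, 183.8 and 446.2 in Hdac2 cKO. Libraries 1 and 2 of Hdac2 cKO were the lowest of the 6, while Hdac2 cKO 3 lay within the WT range. Means were 400 ± 153 (SD, n = 3) and 268 ± 155, with a log2 fold change of -0.66 (SE 0.46). It was -0.37 without WT 3 and -1.10 without Hdac2 cKO 3.

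Nts, the neurotensin gene at chr10:102481756-102490486 on the minus strand, had the largest difference of the 7. Its levels were 247.9, 181.7 and 353.6 normalised counts in WT and 559.7, 862.0 and 2078 in Hdac2 cKO. All 3 Hdac2 cKO libraries were above all 3 WT libraries, but they spread widely among themselves, at 1167 ± 804 (SD, n = 3) against 261 ± 86.7 in WT. The geometric means differed 3.97-fold (log2 fold change 1.99, SE 0.50). Without Hdac2 cKO 3, the highest library, the log2 fold change was 1.46.

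Of the receptor genes, Il31ra, the ligand-binding subunit of the interleukin 31 receptor, lies at chr13:112519898-112594360 on the minus strand. It had 633.5, 451.2 and 143.1 normalised counts in WT and 1465, 952.4 and 966.6 in Hdac2 cKO. WT 3 was the lowest library by a wide margin, and the groups did not overlap, at 409 ± 248 (SD, n = 3) and 1128 ± 292. The log2 fold change was 1.68 (SE 0.54). Without WT 3 it was 1.05, so this library alone moved the geometric-mean fold by over 1.5 times. Il31ra was the 1 member that shared its place with another annotated gene, the processed pseudogene Gm3226 on the same strand. Gm3226 had 623.8, 81.9 and 169.7 normalised counts in WT and 486.0, 908.2 and 356.7 in Hdac2 cKO, an order of libraries unlike that of Il31ra. The sources used here do not say how reads were shared between them.

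Osmr, the oncostatin M receptor subunit that pairs with Il31ra, lies at chr15:6813577-6874969 on the minus strand. It had 1549, 1018 and 582.6 normalised counts in WT and 2208, 2933 and 1804 in Hdac2 cKO. WT 3 was again the lowest, and the lowest Hdac2 cKO library was Hdac2 cKO 3. Means were 1050 ± 484 (SD, n = 3) and 2315 ± 572, a 2.33-fold difference of geometric means (log2 fold change 1.22, SE 0.38, and 0.85 without WT 3). Osmr is also expressed by fibroblasts. The 9 fibroblast and meninges markers summed to 33026 to 39095 in WT and 17633 to 34959 in Hdac2 cKO, and 7 of the 9 had a lower mean log2 level in Hdac2 cKO. Dcn, the fibroblast proteoglycan decorin, had 15270, 13708 and 4851 in WT and 16849, 15801 and 8269 in Hdac2 cKO, lowest in WT 3 as Osmr was (log2 fold change 0.37, SE 0.49, chosen after its values were seen). Other markers of the list ran the other way. Col1a1 had 3319, 5098 and 8666 in WT and 2441, 2776 and 1413 in Hdac2 cKO. Col1a2 had 7162, 9239 and 12441 in WT and 5523, 5594 and 4891 in Hdac2 cKO. Both were highest in WT 3 and lower in Hdac2 cKO without overlap (3.91% of all genes tested). They too were chosen after their values were seen. The part of fibroblasts in the Osmr values was not tested.

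Cysltr2, the leukotriene receptor at chr14:73025603-73049114 on the minus strand, had 337.9, 153.4 and 327.1 normalised counts in WT and 512.2, 527.8 and 405.0 in Hdac2 cKO. The gap between the groups was the narrow one from WT 1 to Hdac2 cKO 3, and WT 2 was low. Means were 273 ± 104 (SD, n = 3) and 482 ± 66.9, with a log2 fold change of 0.89 (SE 0.36), and 0.52 without WT 2. Cysltr2 is also known from endothelium and leukocytes. The 8 vessel markers summed to 10845 to 15407 in WT and 10597 to 13759 in Hdac2 cKO. The 9 macrophage markers summed to 2104 to 4463 in WT and 2034 to 5250 in Hdac2 cKO, and the part of these cells in the Cysltr2 values was not tested.

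Htr1f, the serotonin receptor gene at chr16:64924729-65105854 on the minus strand, had the fewest reads of the 7. It had 200.3, 84.9 and 105.3 normalised counts in WT and 296.0, 209.3 and 255.3 in Hdac2 cKO, and WT 1 and Hdac2 cKO 2 nearly met. Means were 130 ± 61.6 (SD, n = 3) and 254 ± 43.4, with a log2 fold change of 1.04 (SE 0.39). WT 2 held 57 reads of this gene, which gives a counting error of 13.2% at that library if each read is independent. That was not tested, and the share of even counts, given below, differed between WT 2 and the other libraries. The reads of the other members ran from 103 to 2984 in a library. Their counting error, taken in the same way, was below 13.2% for each of them, and it covers counting alone.

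The sizes of the differences were also read within sets of libraries alike in blood genes or in Y-linked reads. Among the libraries high in erythroid and granulocyte genes, 5 members were higher in the 2 Hdac2 cKO libraries than in the 1 WT library, and Sst was lower. Among the libraries low in these genes, 6 were higher in the 1 Hdac2 cKO library than in both WT libraries. For the 5 genes whose groups do not overlap, the direction in any such set is fixed, and only the sizes are of use. They varied: the log2 difference for Nts was 1.48 in the set high in blood genes and 3.03 in the low one, and for Osmr it was 1.93 with Y-linked reads and 0.36 without. Each set holds 1 library of a group, so none has a test.

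Levels can be compared between genes only per length, here as RPKM, reads scaled to the length of the merged exons and to all reads in genes of the library. On this scale the 2 peptide genes Sst and Nppb were highest in WT, at 19.3 ± 6.65 (SD, n = 3) and 17.9 ± 1.38, and did not differ beyond their spread. Nts followed at 7.29 ± 2.18, below every Nppb value. Cysltr2 (3.33 ± 1.26), Osmr (3.07 ± 1.51), Il31ra (2.57 ± 1.61) and Htr1f (1.78 ± 0.89) came next, all Cysltr2 values below every Nts value and with overlap between each pair of neighbours among these 4. In Hdac2 cKO the order of the means was Nts (32.4 ± 21.4), Nppb (25.7 ± 11.4), Sst (12.9 ± 7.06), Il31ra (6.995 ± 1.91), Osmr (6.73 ± 1.81), Cysltr2 (5.90 ± 0.97) and Htr1f (3.45 ± 0.60). Only Cysltr2 and Htr1f, of these neighbours, did not overlap. Nts thus had the third mean in WT and the first in Hdac2 cKO, and Sst the reverse. With the longest transcript as the length, Osmr stood at 6.78 and Cysltr2 at 5.43 in WT, and in Hdac2 cKO Osmr (14.9) stood above Sst (12.9), with overlap. Nts and Osmr then overlapped in WT too. The order among the receptors, the place of Sst in Hdac2 cKO and the gap below Nts in WT thus depend on the length used.

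Ratios between 2 genes of 1 library need no scaling between libraries. They do not remove a tilt with transcript length, described below, and no ratio was computed with that tilt taken out. The pairs described were chosen after their values were seen. The ratio of Nts to Sst was 0.71, 0.65 and 0.62 in WT 1, 2 and 3, against 3.24, 4.69 and 4.66 in Hdac2 cKO 1, 2 and 3. The values within a group lay close together, with an SD of 0.10 on the log2 scale in WT and 0.31 in Hdac2 cKO, and the groups differed by 2.64 on that scale. On the scale per length as well, Nts stood below Sst in each WT library and above it in each Hdac2 cKO library. The spread of either gene alone was larger, and both were highest in the libraries numbered 3 of their group.

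The ratio of Nppb to Sst was 1.19, 1.30 and 0.72 in WT and 2.58, 2.13 and 1.998 in Hdac2 cKO, a 2.14-fold difference of geometric means without overlap. These are the 2 peptides that name the neuron class, and each gene alone overlapped between the groups. The gap in their ratio ran from 1.30 in WT 2 to 1.998 in Hdac2 cKO 3, for a pair chosen after its values were seen. The ratio of Il31ra to Osmr, subunits of 1 receptor, was 0.41, 0.44 and 0.25 in WT and 0.66, 0.32 and 0.54 in Hdac2 cKO, and the groups overlapped. Of all 21 pairs of members, 4 had ratios that did not overlap between the groups: Nts to Sst, Nppb to Sst, Il31ra to Sst and Nts to Nppb. None of the 10 pairs without Sst or Nts did. As the members were chosen with this contrast known, the counts are a description. The share of such ratios among pairs of all genes was not computed, so nothing is read from the counts.

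**Figure D2:**
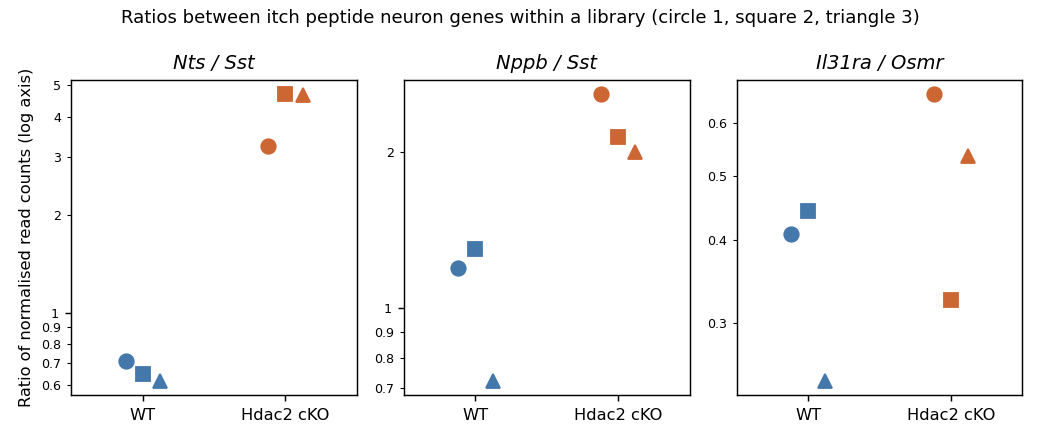
Ratios of normalised read counts within each library (log axes) for Nts to Sst, Nppb to Sst and Il31ra to Osmr, with 3 WT (blue) and 3 Hdac2 cKO (orange) libraries. Nts to Sst lies between 0.62 and 0.71 in WT and between 3.24 and 4.69 in Hdac2 cKO, while Il31ra to Osmr overlaps.

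The members did not vary as 1 group across the 6 libraries. Pearson correlations of log2 levels, which the group difference enters, had a median of 0.50 over the 21 pairs, and 16 of 21 were above 0. Il31ra and Osmr followed each other most closely (r = 0.93), while Sst ran against both (r = -0.73 with Il31ra and -0.76 with Osmr). After the group means were taken out, the median was 0.082 and 13 of 21 were above 0. Among these deviations the peptides went together, with r = 0.96 for Sst and Nts, 0.86 for Nppb and Sst and 0.85 for Nppb and Nts. Nppb was high in Hdac2 cKO 3 alone, where Sst and Nts were also highest of their group. The r of Nppb with both thus rests mainly on that library. Il31ra and Osmr went together as well (r = 0.82) and ran against Sst (r = -0.60 and -0.66). Htr1f went with Cysltr2 (r = 0.62), Il31ra (0.52) and Osmr (0.45). The points are 6 libraries that share their scaling, and 2 of the 6 deviations are fixed by the group means, so these values describe the libraries only.

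**Figure D3:**
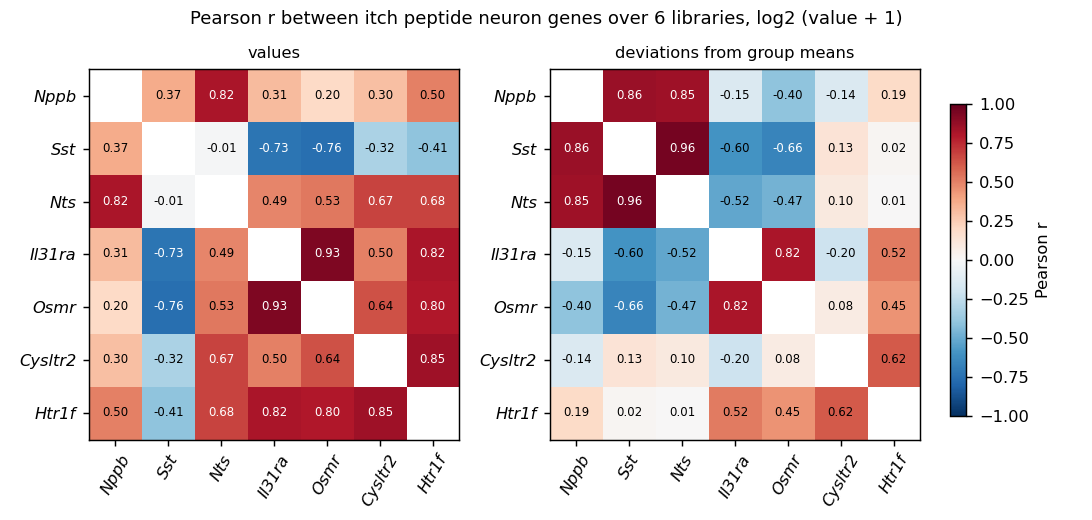
Pearson r of log2 (value + 1) between the 7 genes over 6 libraries, for the values (left) and for deviations from the group means (right). Red is positive and blue negative. At right the block of Nppb, Sst and Nts holds r of 0.85 to 0.96, and Il31ra and Osmr r of 0.82. The r of Nppb with Sst and Nts at right rests mainly on Hdac2 cKO 3.

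The libraries also differed in a tilt with transcript length. The longest transcripts of Nppb, Sst and Nts have 781, 721 and 1248 bases, and those of Il31ra and Osmr have 3680 and 5491. Over all tested protein-coding genes, the median deviation of 1659 short genes (up to 1500 bases) minus that of 3507 long ones (from 5000 bases) was -0.18, 0.24 and 0.35 on the log2 scale in WT 1, 2 and 3, against -0.29, -0.12 and -0.01 in Hdac2 cKO 1, 2 and 3. WT 3, low in Il31ra and Osmr and high in Sst, thus had the largest tilt toward short genes. With a trend on length taken out of each library, the log2 fold changes were 0.59 for Nppb, -0.51 for Sst, 2.12 for Nts, 1.64 for Il31ra, 1.11 for Osmr, 0.99 for Cysltr2 and 1.07 for Htr1f, each in the same direction as before.

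The mean of the 7 standardised log2 levels was -0.08, -0.91 and -0.57 in WT 1, 2 and 3, against 0.35, 0.29 and 0.91 in Hdac2 cKO 1, 2 and 3. Among 13025 other genes with a mean of at least 100, the 10 most like this profile over the 6 libraries included Eea1, Zfp804a, Abraxas2, Rab3c, Rock2, Dennd5b, Nwd2, Rnf6 and Ythdc2, with r of 0.970 to 0.995. Eea1 tethers early endosomes, and Rab3c is a GTPase of synaptic vesicles. All 10 were higher in Hdac2 cKO without overlap (4.63% of all genes tested), by 0.19 to 0.69 on the log2 scale, and this follows from their choice, since the profile itself separates the groups. Eea1, the nearest, had 3638, 3055 and 3199 normalised counts in WT and 4154, 3993 and 4796 in Hdac2 cKO. With 6 libraries, high values of r are frequent among so many genes.

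Partners of the members were taken from lists, and none of their genes passed the test in either direction (limma, 0 called in each list). In the list for interleukin 31 and oncostatin M signalling, 15 of 16 genes were tested, of which 11 had a higher and 4 a lower mean log2 level in Hdac2 cKO (median log2 fold change 0.25, against 0.06 for all genes). Lif, a cytokine of the same family, had 56.5, 55.1 and 245.3 normalised counts in WT and 33.3, 30.5 and 25.9 in Hdac2 cKO, lower without overlap (log2 fold change -1.59, SE 0.66). Of this list, 1 gene was lower and 2 were higher without overlap, against 3.91% and 4.63% of all genes tested. For Lif, WT 3 was far above the other libraries. Lifr, a receptor of this family, had 11736, 11245 and 9216 in WT and 12569, 12884 and 16539 in Hdac2 cKO (log2 fold change 0.38, SE 0.21). Il6st, the subunit that partners Osmr in the oncostatin M receptor, had 14638, 10331 and 5854 in WT and 15897, 14537 and 11126 in Hdac2 cKO, with overlap. Jak1, a kinase that these receptors use, had 11961, 9206 and 4901 in WT and 13020, 12459 and 11412 in Hdac2 cKO, also with overlap. Both were lowest in WT 3, as Il31ra and Osmr were. These 2 genes were chosen after their values were seen.

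In the list for the peptides' receptors and processing enzymes, 15 of 19 genes were tested, 9 higher and 6 lower, with a median of 0.13 and no gene without overlap. Ntsr1, a neurotensin receptor, had 17.6, 20.8 and 2.04 normalised counts in WT and 45.5, 42.3 and 15.4 in Hdac2 cKO. Corin, a protease of natriuretic peptides, had 22.1, 52.1 and 3.07 in WT and 57.6, 47.2 and 38.5 in Hdac2 cKO. Both were low and overlapped, with SEs of 0.97 and 0.96 on the log2 scale. Npr1, the receptor for natriuretic peptide B and named here for that role, stood at 163 ± 30.0 (SD, n = 3) in WT and 161 ± 30.7 in Hdac2 cKO, a log2 fold change of -0.02 (SE 0.32).

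The leukotriene list had 7 of 9 genes tested, 4 higher and 3 lower, with a median of 0.05 and no gene without overlap. Cysltr1, the other cysteinyl leukotriene receptor, had 38.8, 11.9 and 21.5 normalised counts in WT and 20.2, 15.7 and 12.6 in Hdac2 cKO. Alox5ap, which helps 5-lipoxygenase start leukotriene synthesis, had 103.2, 43.2 and 45.0 in WT and 106.1, 103.2 and 35.7 in Hdac2 cKO. The groups overlapped for both genes.

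Of 14 other genes linked to the Nppb and Sst neurons, all were tested, with 11 higher, 3 lower and a median of 0.46. Without overlap, 2 were higher, against 4.63% of all genes tested. Il4ra, a cytokine receptor linked to chronic itch, had 982.1, 866.6 and 965.9 normalised counts in WT and 1430, 1283 and 1235 in Hdac2 cKO (log2 fold change 0.49, SE 0.19). Here the spread within groups was small. Trpa1, an irritant channel of itch and pain neurons, had 1594, 890.4 and 528.4 in WT and 1865, 1819 and 1367 in Hdac2 cKO, with overlap (log2 fold change 0.88, SE 0.40).

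Lists for other classes of small neurons gave the context. The 12 markers of the Mrgprd and Mrgpra3 neurons, further itch-related classes, had 9 higher and 3 lower, with a median of 0.58. Without overlap, 2 were higher, against 4.63% of all genes tested. Lpar3, a lysophosphatidic acid receptor, had 1560, 1921 and 1089 normalised counts in WT and 1761, 2133 and 2497 in Hdac2 cKO, with overlap. The median of 0.58 includes WT 3, which stood far below all other libraries for some of these markers. P2rx3 had 513 in WT 3 and 3649 to 4767 elsewhere, and Lpar5 had 0 and 182 to 301. Gfra1, Mrgprx1 and Plxnc1 were also lowest in WT 3 by a wide margin. Gfra2 went the other way, with 11310 in WT 3 and 3341 to 5378 elsewhere. These genes were chosen after their values were seen, and the median without WT 3 was not computed. The 10 peptidergic nociceptor markers had 6 higher and 4 lower, with a median of 0.12. Without overlap, 2 were higher and 1 lower, against 4.63% and 3.91% of all genes tested. Of these, Adcyap1, the gene of the peptide PACAP, had 2191, 2038 and 2574 in WT and 2860, 2656 and 3175 in Hdac2 cKO. Smr2 had 108.5, 145.9 and 226.9 in WT and 87.9, 102.2 and 101.4 in Hdac2 cKO. Neither pair of groups overlapped, and the directions were opposite. No test compares these lists with the 7 genes.

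The spinal itch relay genes were read for carry-over of spinal cord, where neurons also make Sst and Nts. Of 6 genes, 3 were tested, 1 higher and 2 lower, with a median of -0.02. Nmb, a peptide gene that sensory neurons also express, had 2330, 3560 and 6616 normalised counts in WT and 2114, 2574 and 3475 in Hdac2 cKO. Grpr, the gastrin-releasing peptide receptor of the dorsal horn, had 18.5, 8.93 and 0 in WT and 15.2, 28.5 and 5.60 in Hdac2 cKO. The 12 spinal cord markers, of which 5 were tested, summed to 456 to 596 in WT and 452 to 704 in Hdac2 cKO. Aqp4, a glial water channel, held the largest share of the sum in each of the 6 libraries. Of the markers of inhibitory spinal neurons, Gad2, Slc32a1 and Slc6a5 were at most 7.15 in any library, while Gad1 ran from 8.18 to 54.1 and Pax2 from 26.5 to 80.4. Olig2, of oligodendrocytes, was at most 3.53. The part of spinal cord RNA in the Sst and Nts values was not tested. Chat and Sall3 were at 85.9 and 61.3 in WT 3 and at most 1.97 and 1.76 elsewhere.

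**Figure D4:**
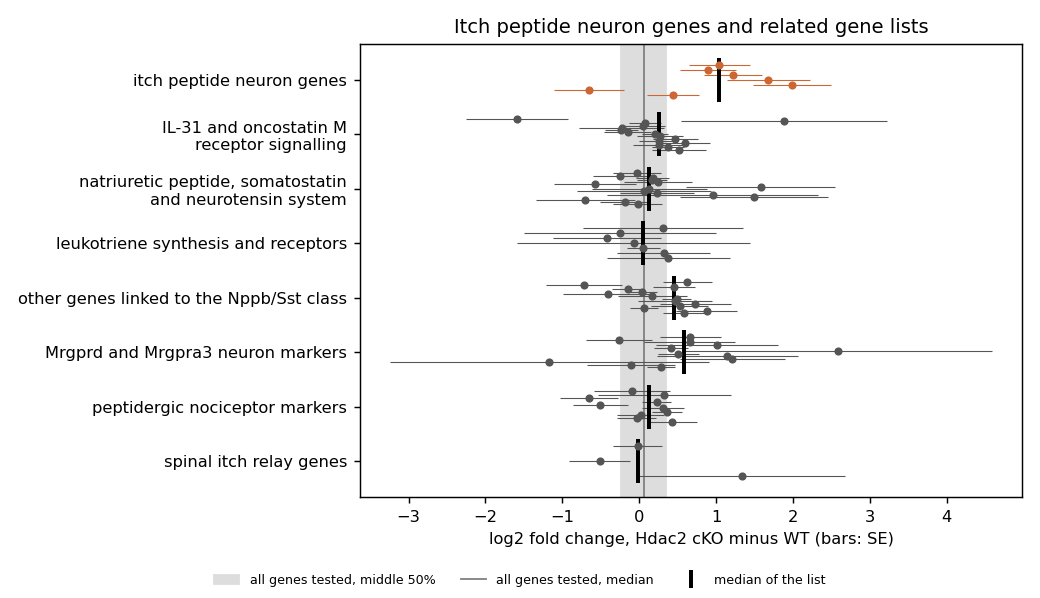
Log2 fold change, Hdac2 cKO minus WT, with SE bars, for the 7 itch peptide neuron genes (orange) and the tested genes of 7 related lists (grey), with black ticks at the medians and a band from the lower to the upper quartile of all genes tested. The 7 genes have a median of 1.04, the lists medians of -0.02 to 0.58, and all genes 0.06.

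Markers of other tissues differed between the groups as well. All 9 tested skeletal muscle markers had a lower mean log2 level in Hdac2 cKO (median log2 fold change -3.56), with sums of 2390 to 10040 in WT and 195 to 1210 in Hdac2 cKO. Of 8 markers of myelinating Schwann cells, 7 were lower (median -0.72), 4 of them without overlap, against 3.91% of all genes tested. Avil is not a marker of another tissue but a gene of sensory neurons, and its promoter drives Cre. It had 15684, 17149 and 11996 normalised counts in WT and 10125, 9369 and 8201 in Hdac2 cKO (log2 fold change -0.68, SE 0.21). The part of these differences in the values of the 7 genes was not tested. When libraries were scaled to equal sums of the pan-neuronal markers, the median of all genes was 0.15, and the log2 fold changes of the members ran from -0.56 for Sst to 2.08 for Nts.

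Under the alternative settings no gene changed its direction, which for the 5 genes whose groups do not overlap is no sign of stability. The replicate block in limma and the filters cannot move a fold change by their construction. Nppb came nearest to 0, at 0.08 without Hdac2 cKO 3.

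**Figure D5:**
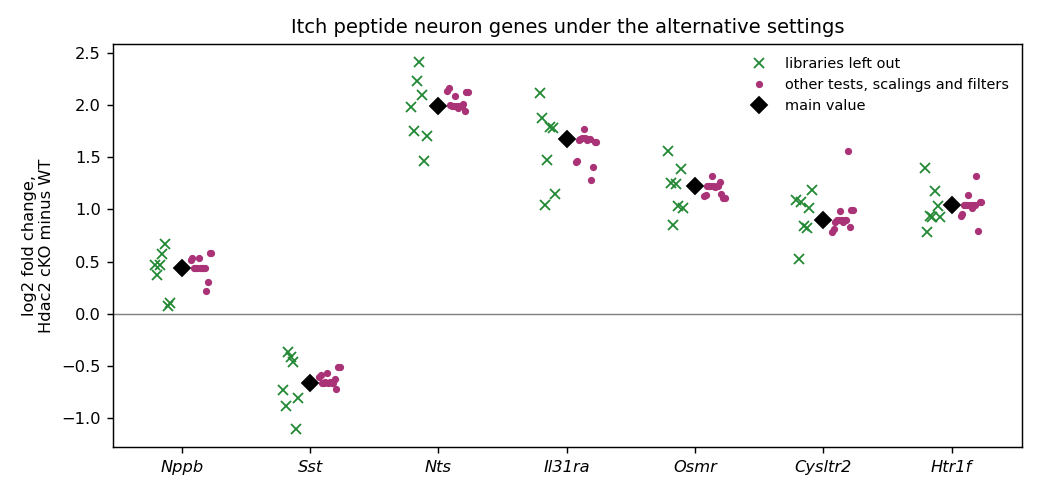
Log2 fold change, Hdac2 cKO minus WT, of each of the 7 genes in the main fit (diamonds), with libraries left out (crosses) and under other tests, scalings and filters (dots). No gene changes its sign: Sst stays between -1.10 and -0.37, Nppb reaches down to 0.08, and Nts lies between 1.46 and 2.41.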

How the data were processed

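RNA from frozen dorsal root ganglia was extracted with Trizol, per the labels' protocols. Per the submitters' processing notes, the tools were HISAT2, SAMtools, featureCounts and DESeq2 and the build was mm10. Versions, annotation and strand setting: not given in the sources used here. The deposited signal values are gene read counts that the authors divided by 1 size factor per library, and every value came out as a whole number of reads within 0.01 once the factor was undone. Of 54532 gene identifiers, 54495 matched GENCODE M21 (GRCm38), which gave symbols, positions and lengths. Promoters came from RefSeq (GRCm38.p6), and 7 of 7 members matched.

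The 18410 genes that reached 10 in 3 or more libraries were tested with limma 3.58.1 (R 4.3.3), with a trend on intensity and robust variances, after log2 (value + 1). This scale understates fold changes where values are low. Two-sided p-values were adjusted with the Benjamini-Hochberg method, and calls were made under 0.05. Whether a library is 1 mouse or a pool is not given, so p-values measure only the spread between these libraries, which may be technical. Members and lists were chosen with earlier results of these data known. Named genes were the 7 members, Hdac2, Avil, the 10 genes most like the members' profile, and the 2 genes with the smallest p in each related list, where none passed. Of these, 2 genes are not reported here. Genes named outside this rule are said to be so or stand as markers. The alternatives were edgeR 4.0.16, DESeq2 1.42.0, other scalings, pseudocounts, filters, array weights and libraries left out; added after seeing the data were a sex term, a gene length trend, the ratios and the sets of libraries. The fits were tested on simulated data.

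Deviations of same-numbered libraries from their group means correlated across genes by 0.40, 0.15 and 0.42 for numbers 1, 2 and 3. From these same data, alternative fits with a replicate block took the numbers to pair the libraries. The main fit had no block. The labels do not state such a pairing. WT 1 and Hdac2 cKO 2 correlated by 0.34, so this pairing is uncertain. Among genes with 1 to 20 reads, 60.2 to 64.4% of counts were even in 5 libraries and 42.4% in WT 2. The cause was not tested.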

Additional observations from a re-analysis of the deposited data

How the results depend on the processing

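Over 21 alternative settings, of which the replicate block in limma and the filters leave a fold change as it is, none of the 7 genes changed its direction. For the 5 genes whose groups do not overlap this is no sign of stability. The log2 fold change ran from 0.08 to 0.67 for Nppb, -1.10 to -0.37 for Sst, 1.46 to 2.41 for Nts, 1.05 to 2.12 for Il31ra, 0.85 to 1.56 for Osmr, 0.52 to 1.56 for Cysltr2 and 0.79 to 1.40 for Htr1f. Their median was 0.79 to 1.40 with 1 library left out. Against 0 genes called by limma, DESeq2 called 23 (0.121% of 18978), array weights 567 (3.08%) and limma without both libraries numbered 3 called 5 (0.0272%), while edgeR called 0, with 401 genes at an unadjusted p under 0.05. DESeq2 called no member, and its adjusted p for Nts was 0.0527. Array weights gave WT 3 a weight of 0.101 and WT 2 one of 4.17. With them, limma had 5175 genes (28.1%) at an unadjusted p under 0.05, against 1.85% in the main fit. It called 5 members, Nts, Il31ra, Osmr, Cysltr2 and Htr1f (adjusted p 0.0136 to 0.0395). It also called 4 genes of the related lists, Trpa1, Tac1, Il4ra and Trpv1. Hdac2 passed under DESeq2 (log2 fold change -2.51, adjusted p 6.52e-09) and array weights (-2.13, adjusted p 0.00173). The causes were not tested. With the longest transcript as the length, the WT levels were 6.78 for Osmr and 5.43 for Cysltr2, and the median correlation between members was 0.082 after centring on group means. The 3 described ratios kept their directions over 9 alternatives. Their log2 differences were 2.51 to 2.82 for Nts to Sst, 0.84 to 1.26 for Nppb to Sst and 0.12 to 0.75 for Il31ra to Osmr. For Nts to Sst and Nppb to Sst the groups do not overlap, so leaving libraries out cannot reverse their direction.

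With the replicate block, on the uncertain pairing, limma called 0 genes, with 1094 at an unadjusted p under 0.05. DESeq2 with the block called 60 (0.295% of 20318), among them Hdac2 (-2.47) and 3 members, Nts (adjusted p 1.19e-05), Il31ra (0.00344) and Osmr (0.0103). The block changed no other member's call. Depth limits Htr1f most, with 57 reads in WT 2.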
